A study of Homo sapiens with 4 samples.

Results

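The genes described here encode the MuvB core complex, the MYB family and forkhead factors that join it late in the cell cycle, and the associated chromatin gene ATAD2. They were chosen by name for their roles, not from their values, and were found by matching 9 symbols (LIN9, LIN37, LIN52, LIN54, RBBP4, MYBL1, MYBL2, FOXM1 and ATAD2) to the Ensembl IDs of the count table. All 9 had a row among 20263 gene IDs, and all 9 were among the 13879 genes with enough counts to be tested. RNA was sequenced from MDA-MB-231, an established human triple-negative breast cancer cell line, kept in medium with 10% serum for 24 h. One group received DMSO, the solvent control, and the other is labelled Neoribocic, at a dose not given in the sources used here. Rib_CA is the sole agent in the treatment protocol, and no label says that this is Neoribocic, although both are taken here as the same treatment. Each group had 2 libraries of this single line. The labels do not tie the replicates to separate cultures. The spread that the p-values measure is therefore that of these libraries alone, and it may be technical.

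MuvB is a small complex that switches partners during the cell cycle. In resting cells it joins the pocket proteins p130 or p107 with E2F4 and a DP protein to form DREAM, which holds cell cycle genes silent. In cycling cells MuvB releases the pocket protein, binds B-MYB (the product of MYBL2) and then FOXM1, and activates genes of G2 and mitosis. LIN54 is the subunit that touches DNA, at a short element called the CHR (cell cycle genes homology region), while E2F sites mark genes of the G1 to S transition.

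The libraries held 34774542 to 43014212 counts. Mitochondrial genes took 21.7% of counts in DMSO replicate 2 and 5.76% to 8.68% in the other 3 libraries, and leaving these genes out before scaling changed no call among the 9. Markers of the line were present, with VIM (vimentin) at 2804 to 4238 CPM (counts scaled to a common library size, per 1e6 counts) and EGFR at 347 to 1079 CPM. The other line markers CD44, AXL and CAV1 were at 220.3 to 1821 CPM. Of 5 markers listed as low in this line, CDH1 (E-cadherin) was at 0 to 0.141 CPM, ESR1 (the estrogen receptor) at 0.168 to 0.649 CPM and PGR (the progesterone receptor) at 0.282 to 1.77 CPM. The other two were not near 0, with EPCAM at 9.31 to 9.93 CPM and ERBB2 (HER2) at 65.6 to 76.0 CPM with DMSO and 89.8 to 108.5 CPM with Neoribocic. Markers of leukocytes and endothelium were near 0, with PTPRC at 0.147 to 0.620 CPM and PECAM1 at 0.330 to 1.16 CPM, while the fibroblast gene COL1A1 was at 5.84 to 8.08 CPM. In bulk RNA, fewer cells in a cell cycle phase and less RNA per cell cannot be told apart.

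Promoter sequence is shown first, because the complex is defined by the DNA it reads. The CHR was searched as TTTGAA and as TTCGAA. The E2F site was searched as TTCCCGC, with the variants TTGGCGC and TTCGCGC and TTGCCGC, and as GGCGGGA. Both strands were read in RefSeq windows (GRCh38.p14) from 250 bases before to 50 bases after each start site. TTCCCGC and the reverse of GGCGGGA overlap where they share TCCCGC. Each stretch below is the 150 bases before the most upstream start site in the table, 5′ to 3′ on the gene's strand, with CHR and E2F letters in capitals. The first 4 are members that rose, did not pass the test or fell, and the last 4 are genes of late cell cycle, picked after their values were seen.

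LIN37 (chr19:35748426-35748575, plus strand): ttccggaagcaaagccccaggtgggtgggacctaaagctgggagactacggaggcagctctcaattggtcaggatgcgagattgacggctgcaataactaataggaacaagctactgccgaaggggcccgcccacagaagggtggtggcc

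LIN52 (chr14:74084806-74084955, plus strand): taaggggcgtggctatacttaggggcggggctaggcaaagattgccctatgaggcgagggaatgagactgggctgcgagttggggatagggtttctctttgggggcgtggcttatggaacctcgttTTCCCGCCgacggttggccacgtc

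LIN54 (chr4:83010835-83010984, minus strand): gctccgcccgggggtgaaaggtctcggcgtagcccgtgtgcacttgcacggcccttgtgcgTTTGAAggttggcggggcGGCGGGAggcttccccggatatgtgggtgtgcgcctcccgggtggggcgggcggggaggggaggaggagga

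MYBL2 (chr20:43666964-43667113, plus strand): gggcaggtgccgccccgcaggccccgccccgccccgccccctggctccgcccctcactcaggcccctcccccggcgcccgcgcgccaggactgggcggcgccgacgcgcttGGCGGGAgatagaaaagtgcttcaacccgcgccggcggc

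MKI67 (chr10:128126424-128126573, minus strand): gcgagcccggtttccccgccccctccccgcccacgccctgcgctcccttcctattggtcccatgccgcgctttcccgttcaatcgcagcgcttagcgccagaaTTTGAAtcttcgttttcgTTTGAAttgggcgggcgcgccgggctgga

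KIF23 (chr15:69414199-69414348, plus strand): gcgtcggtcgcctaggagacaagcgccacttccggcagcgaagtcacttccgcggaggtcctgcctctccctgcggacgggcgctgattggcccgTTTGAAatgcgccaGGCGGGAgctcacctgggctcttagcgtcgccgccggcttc

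CCNB2 (chr15:59104996-59105145, plus strand): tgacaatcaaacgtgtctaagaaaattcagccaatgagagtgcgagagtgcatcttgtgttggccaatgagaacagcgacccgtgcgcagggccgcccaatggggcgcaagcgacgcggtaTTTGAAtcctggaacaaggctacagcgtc

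CDC20 (chr1:43358831-43358980, plus strand): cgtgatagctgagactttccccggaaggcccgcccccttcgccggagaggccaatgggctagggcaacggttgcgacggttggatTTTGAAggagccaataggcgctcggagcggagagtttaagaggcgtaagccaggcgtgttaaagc

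LIN54 carried a CHR match with its first base at -89 and an E2F match at -71 from the start site. MYBL2 had an E2F match at -39 and LIN52 overlapping E2F matches that begin at -24. MKI67, which encodes the proliferation marker Ki-67, had 2 CHR matches, at -47 and -29. KIF23, a kinesin of cytokinesis, had a CHR at -55 and an E2F match at -41, CCNB2 (cyclin B2) a CHR at -29 and CDC20, an activator of the anaphase-promoting complex, a CHR at -65. In the stretch of LIN37 shown, which belongs to the member that rose, neither motif occurred. The window of its other start site had a CHR match at -182 and an E2F match at -162. The corresponding stretch of LIN9, which fell and is not shown, held neither motif either. Matches for LIN9 lay only in windows of its other start sites. Of the 9 members 6 were in the promoter table. All 6 had an E2F match in at least 1 window and 3 had a CHR match (LIN9, LIN37 and LIN54), against 26.4% and 19.5% of all 27305 symbols. FOXM1, MYBL1 and ATAD2 were not among them. A match is a run of letters and not a measured binding site.

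With Neoribocic 7 of the 9 genes fell, 1 rose and 1 did not pass the test, where 40.4% of all genes tested were called in either direction, 21.3% lower and 19.1% higher. MYBL1 and ATAD2 had the most negative log2 fold changes as counted (-2.12 and -2.27). After correction for GC content and transcript length, MYBL2 at -1.40 was level with them (-1.42 and -1.51). FOXM1 and MYBL2 were at 74.6 and 79.2 CPM against 148 and 145 CPM in DMSO, and the MuvB core genes moved apart: LIN9, LIN54 and RBBP4 fell, LIN37 rose, and LIN52 stayed within the spread of its replicates. A gene was called at an adjusted p under 0.05 from the quasi-likelihood test of edgeR (Benjamini-Hochberg, 13879 genes). Calls in both directions were thus common in these data. The median log2 fold change (Neoribocic minus DMSO) was -0.99 over the 9 genes and 0.01 over all genes tested, and with that correction -0.57 over the 9 genes. The groups did not overlap in 8 of the 9 genes, with 7 lower and 1 higher, against 75.1% of all genes tested (37.3% lower and 37.8% higher).

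**Figure D1:**
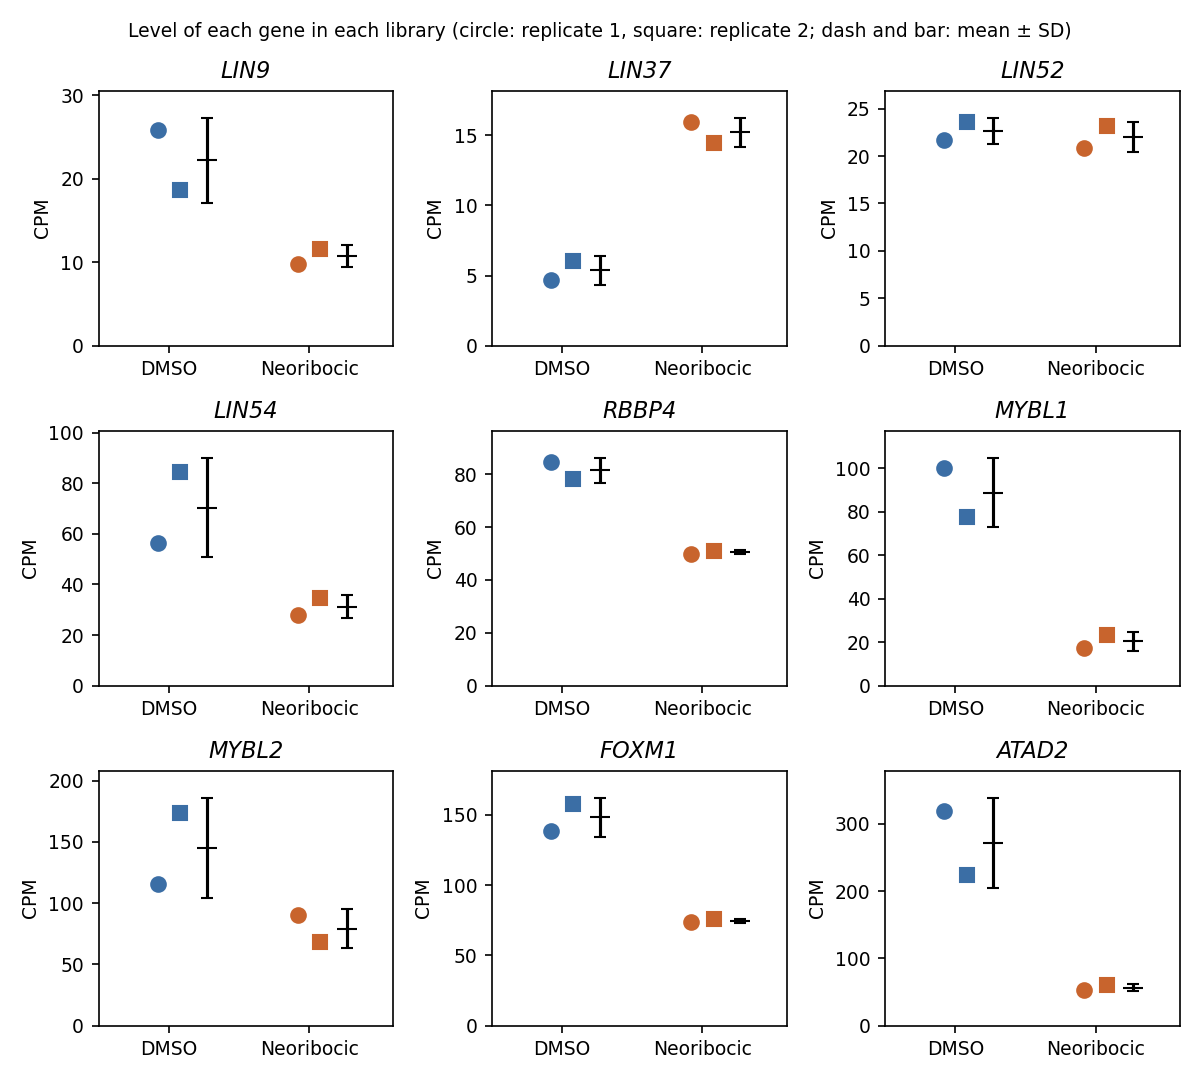
Level of each of the 9 genes in each library, in CPM on a linear axis that starts at 0, with circles for replicate 1, squares for replicate 2, and a dash with a bar for the mean and SD (n = 2 per group). The Neoribocic libraries lie below both DMSO libraries in 7 panels, above them for LIN37 and among them for LIN52.

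LIN54 (ENSG00000189308), the DNA-binding subunit, stood at 56.5 and 84.3 CPM in DMSO replicates 1 and 2 and at 27.9 and 34.5 CPM in Neoribocic replicates 1 and 2. The groups did not overlap, although DMSO replicate 2 was well above replicate 1. Its log2 fold change was -1.17 ± 0.26 (SE; edgeR adjusted p = 0.00847), a level 2.26-fold lower. LIN9 (ENSG00000183814), a subunit through which B-MYB is bound, was at 25.8 and 18.6 CPM with DMSO and at 9.82 and 11.6 CPM with Neoribocic. Every treated library was again below both controls, and the gene fell by 1.05 ± 0.26 on the log2 scale (edgeR adjusted p = 0.0132). RBBP4 (ENSG00000162521), a histone-binding protein shared with several chromatin complexes, was at 84.8 and 78.0 CPM with DMSO and at 49.9 and 50.9 CPM with Neoribocic. This was the smallest fall among the 7, at -0.69 ± 0.20 (edgeR adjusted p = 0.0236), with replicates that lay close together in both groups. GENCODE names 6 pseudogenes of RBBP4, so its reads could be divided among copies, and 18.01% of its exon bases overlap SYNC on the opposite strand. SYNC was at 2.23 to 3.98 CPM, far below RBBP4.

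LIN37 (ENSG00000267796), a subunit needed for gene repression by DREAM, was the only member that rose. It was at 4.65 and 6.07 CPM with DMSO and at 15.9 and 14.5 CPM with Neoribocic, so it was low in the controls and clearly separated from them after treatment. The log2 fold change was 1.504 ± 0.26 (edgeR adjusted p = 0.00332), a 2.84-fold higher level resting on 165 and 199 counts in DMSO and 677 and 687 in Neoribocic. LIN37 shares 26.67% of its exon bases with another annotated gene on its strand and 41.84% with one on the opposite strand. How strand and overlaps were handled in counting was not given in these sources, and their part in the rise was not tested.

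LIN52 (ENSG00000205659), the subunit whose phosphorylation by the kinase DYRK1A brings MuvB to the pocket proteins, was at 21.7 and 23.6 CPM with DMSO and 20.9 and 23.1 CPM with Neoribocic. The groups interleaved. Its log2 fold change was -0.04 ± 0.22 (edgeR adjusted p = 0.900), and the sign turned to 0.084 with upper-quartile scaling and 0.14 with library totals.

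Per kilobase of transcript the order of the core genes, as counted, changed between the groups. This division does not remove the trend of the response with length and GC content described below. As counted, the log2 fold changes of LIN37 and LIN54 were 1.504 and -1.17. With the trend removed they were closer together, at 0.69 and -0.41. With DMSO the means were 11.5 ± 3.21 (SD, n = 2) CPM per kb for LIN54, 10.2 ± 0.600 for RBBP4, 8.16 ± 0.503 for LIN52, 6.22 ± 1.43 for LIN9 and 4.66 ± 0.870 for LIN37. In that order LIN54 and RBBP4 did not differ beyond their spread, nor did LIN9 and LIN37. With Neoribocic LIN37 was highest at 13.2 ± 0.903 CPM per kb, followed by LIN52 at 7.93 ± 0.571, RBBP4 at 6.35 ± 0.0903, LIN54 at 5.09 ± 0.754 and LIN9 at 3.01 ± 0.359. The ratio of LIN37 to LIN54 per kb was 0.439 and 0.384 in the DMSO libraries and 3.04 and 2.24 in the Neoribocic libraries. The ratio of LIN52 to LIN54 was 0.846 and 0.619 with DMSO and 1.65 and 1.48 with Neoribocic. Both ratios separated the groups, but with 2 libraries per group the smallest two-sided p of an exact permutation test is 0.333, so neither can pass a test on its own.

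**Figure D2:**
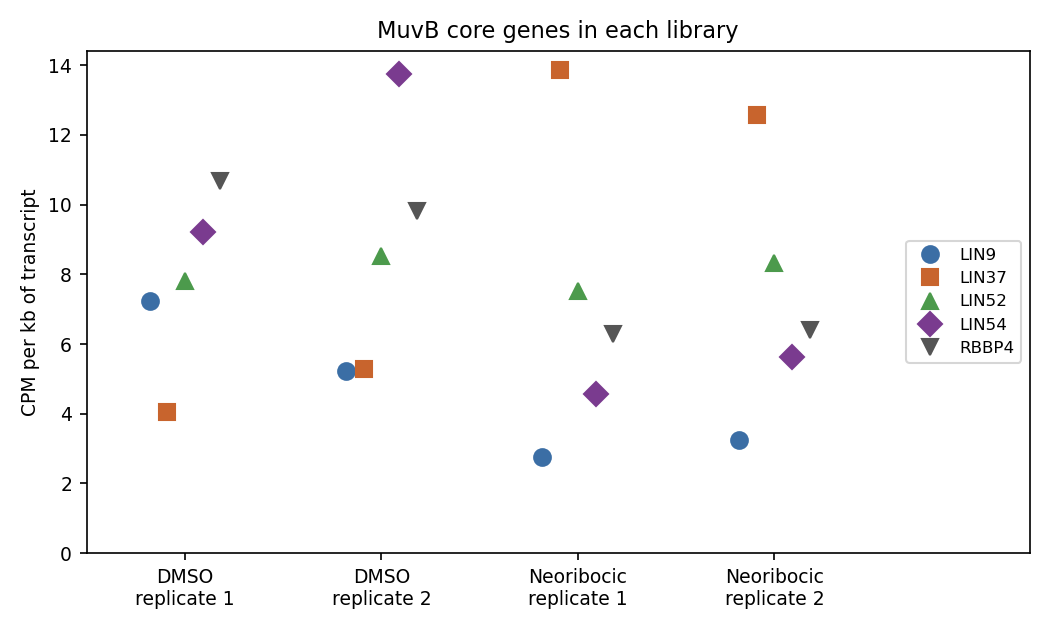
CPM per kb of transcript (linear axis from 0) of the 5 MuvB core genes in each of the 4 libraries, with 1 marker per gene. LIN37 is at or near the bottom in both DMSO libraries (4.05 and 5.28) and at the top in both Neoribocic libraries (13.9 and 12.6).

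MYBL2 (ENSG00000101057), the gene of B-MYB, was at 116 and 174 CPM in DMSO replicates 1 and 2 and at 90.4 and 68.0 CPM in Neoribocic replicates 1 and 2. The groups did not overlap, but the DMSO replicates were spread widely. The log2 fold change was -0.87 ± 0.25 (edgeR adjusted p = 0.0267), and the call was lost without DMSO replicate 2 (-0.54; edgeR adjusted p = 0.164) and without Neoribocic replicate 1 or 2 (edgeR adjusted p = 0.0561 and 0.136). FOXM1 (ENSG00000111206), the forkhead factor of G2 and mitosis, was at 138 and 158 CPM with DMSO and 73.6 and 75.5 CPM with Neoribocic. Its replicates were tight and its log2 fold change was -0.99 ± 0.19 (edgeR adjusted p = 0.00496). FOXM1 shares 15.94% of its exon bases with ITFG2 on the opposite strand, which was at 9.25 to 12.1 CPM with overlapping groups.

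MYBL1 (ENSG00000185697), the gene of A-MYB, a relative of B-MYB best known from male germ cells, was at 100.05 and 77.4 CPM with DMSO. With Neoribocic it was at 17.3 and 23.5 CPM, far below both controls, a log2 fold change of -2.12 ± 0.25 (edgeR adjusted p = 9.45e-04). Per kb, MYBL1 was below MYBL2 in every library, at 0.439 and 0.226 of its level with DMSO and at 0.0971 and 0.176 with Neoribocic. MYB, the third gene of the family and the founding proto-oncogene, was already low at 4.15 and 5.43 CPM and went to 0.541 and 0.863 CPM, a log2 fold change of -2.76 ± 0.38 (edgeR adjusted p = 0.00148). All members of the MYB family thus had lower RNA with Neoribocic.

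ATAD2 (ENSG00000156802), a bromodomain ATPase and E2F target, had the highest CPM of the 9 in the controls, at 319 and 224. It was at 52.6 and 60.4 CPM with Neoribocic, a log2 fold change of -2.27 ± 0.23 (edgeR adjusted p = 6.86e-04) and a 4.81-fold lower level. Per kb, as counted, it had been level with FOXM1 and MYBL2 in the controls (48.8 ± 12.02 against 42.6 ± 3.99 and 54.9 ± 15.6). It was below both with Neoribocic (10.1 ± 0.993 against 21.5 ± 0.393 and 30.0 ± 6.02). Division by length leaves the trend of the response with length and GC content in place. With that trend removed the log2 fold changes were -1.51 ± 0.16 (SE) for ATAD2, -1.40 ± 0.20 for MYBL2 and -1.14 ± 0.13 for FOXM1. ATAD2B, the closest relative of ATAD2, was at 12.2 and 9.60 CPM with DMSO and 4.57 and 7.18 CPM with Neoribocic. It had a log2 fold change of -0.89 ± 0.30 (edgeR adjusted p = 0.0456). That call was lost when DMSO replicate 1, DMSO replicate 2 or Neoribocic replicate 1 was left out (edgeR adjusted p = 0.159, 0.0583 and 0.262), and with upper-quartile factors, library totals or no robust option (0.0700, 0.125 and 0.0524). Its value was -0.000262 after the correction described next.

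Across all genes the response followed transcript length and GC content. The median log2 fold change was 0.73 in the tenth of genes with the shortest transcripts and -0.71 in the tenth with the longest. The members differ in the same properties. LIN37 has a transcript of 1150 bases with 59.3% GC, and 7.71% of tested genes are shorter. LIN54 and RBBP4 have 6127 and 7943 bases with 39.1% and 41.65% GC, and MYBL1 has 37.4% GC, a content that only 4.92% of tested genes fall below. A fit was therefore also made after a smooth trend with length and GC content had been removed from each library.

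After this correction the 4 genes outside the MuvB core passed as lower. No core gene did, although LIN9 stayed negative and fell just short of the threshold. The corrected log2 fold change was -1.42 ± 0.15 (SE) for MYBL1, -1.40 ± 0.20 for MYBL2, -1.14 ± 0.13 for FOXM1 and -1.51 ± 0.16 for ATAD2, with edgeR adjusted p from 0.00352 to 0.00584. In the core, LIN9 was at -0.57 ± 0.18 (edgeR adjusted p = 0.0522), LIN54 at -0.41 ± 0.27 (0.265) and RBBP4 at 0.20 ± 0.15 (0.350), so that 0 of the 5 passed as lower. LIN37 still passed as higher, at 0.69 ± 0.20 (edgeR adjusted p = 0.0443), and LIN52 was at 0.24 ± 0.17 (0.301). Over all genes 19.2% were called lower and 16.5% higher with the correction. The correction thus moved MYBL2 away from 0 and LIN54, LIN9 and RBBP4 toward or past it. How far the trend with length and GC content arose in the cells or in the libraries was not tested.

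**Figure D3:**
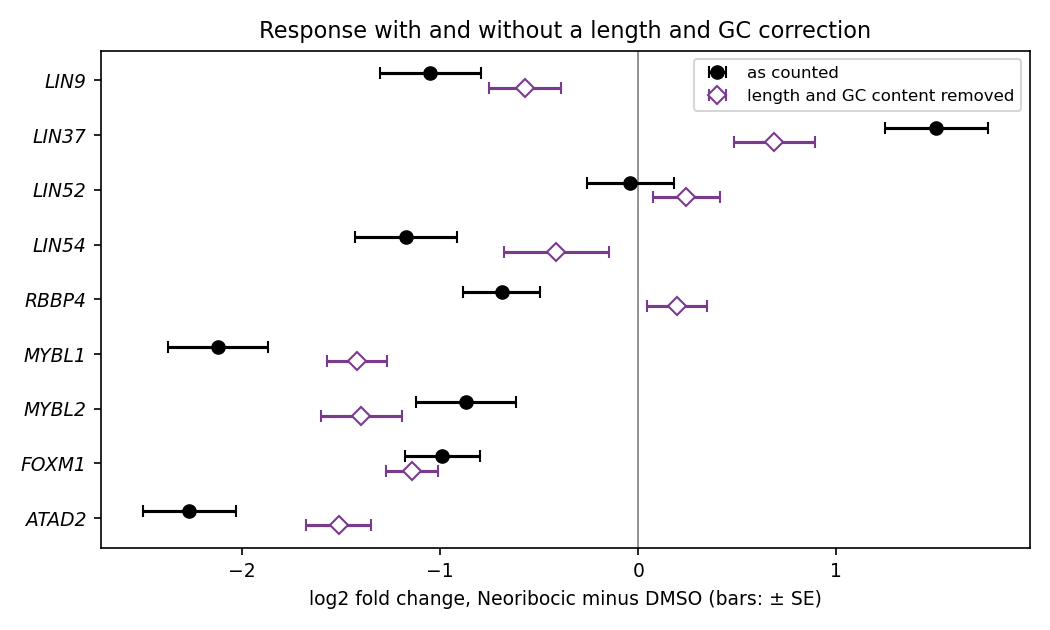
Log2 fold change (Neoribocic minus DMSO) of each of the 9 genes with bars of ± 1 SE, as counted (filled circles) and after removal of a trend with transcript length and GC content (open diamonds). MYBL1, MYBL2, FOXM1 and ATAD2 stay at or below -0.87 on both scales, while RBBP4 goes from -0.69 to 0.20.

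The calls of MYBL1, FOXM1, ATAD2 and LIN37 held under all 16 alternatives run. The call of LIN9 was lost without DMSO replicate 1 or Neoribocic replicate 1 (edgeR adjusted p = 0.0679 and 0.0915), and that of LIN54 without DMSO replicate 2 or Neoribocic replicate 1 (0.0544 and 0.0704). RBBP4 lost its call on leaving out each of the 4 libraries in turn (edgeR adjusted p from 0.0585 to 0.117) and with library totals (0.136). Without Neoribocic replicate 1, 3 of the 9 passed as lower, and without DMSO replicate 2, 4 of the 9.

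The partners that turn MuvB into DREAM fell in part. RBL1, the gene of p107, went from 99.3 and 98.5 CPM to 39.8 and 42.2 CPM (log2 fold change -1.27 ± 0.20; edgeR adjusted p = 0.00216). RBL2, the gene of p130, went from 81.4 and 71.9 CPM to 33.8 and 41.6 CPM (-1.02 ± 0.22; edgeR adjusted p = 0.00719), and 18.18% of its exon bases overlap the opposite strand. TFDP1, which encodes the E2F partner DP1, fell by 0.84 ± 0.19 (edgeR adjusted p = 0.00918). After the correction these were at -0.52, -0.44 and -0.69, each still past the edgeR threshold, and the calls of RBL2 and TFDP1 were lost without Neoribocic replicate 1 (edgeR adjusted p = 0.0620 and 0.0611). E2F4, the main E2F of DREAM, was at 127 and 124 CPM with DMSO and 129 and 103 CPM with Neoribocic, TFDP2 was at -0.15 ± 0.20 and E2F5 at 0.32 ± 0.27, and none of these passed. With the correction E2F4 passed as lower at -0.70 (edgeR adjusted p = 0.0130). DYRK1A, the kinase that acts on LIN52, was at 17.6 and 24.3 CPM with DMSO and 19.8 and 42.5 CPM with Neoribocic, with overlapping groups. Its log2 fold change was 0.57 ± 0.38 as counted and 1.67 with the correction, where it passed (edgeR adjusted p = 0.0195). The DYRK1A transcript used has 17562 bases, and 99.7% of tested genes are shorter. How well the removed trend holds at that extreme length was not tested. In all, 3 of 7 partners fell and 0 rose, with a median of -0.15, against 21.3% lower and 19.1% higher over all genes tested. With the correction 4 fell and 1 rose, with a median of -0.44.

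RBBP4 also serves other complexes, among them the histone chaperone CAF-1, the deacetylase complexes SIN3 and NuRD, and the histone methyltransferase PRC2. Of 16 genes of these complexes 8 fell and 0 rose, against 21.3% lower and 19.1% higher over all genes tested. Their median was -0.65. With the correction 8 were lower, not all of them the same genes, and 1 was higher, with a median of -0.54. EZH2, the catalytic subunit of PRC2, went from 101 and 115 CPM to 32.6 and 37.3 CPM (-1.63 ± 0.21; edgeR adjusted p = 0.00116). CHD4, the NuRD remodeler, fell by 1.23 on the log2 scale, MBD2, its methyl-CpG-binding partner, by 1.10 and SUZ12 of PRC2 by 1.17. CHD4 shares 46.91% of its exon bases with another annotated gene on its strand and 10.19% with one on the opposite strand. MBD2 and SUZ12 were at -0.62 and -0.54 after the correction. RBBP7, the paralogue of RBBP4, went from 172 and 150 CPM to 76.0 and 76.2 CPM, a log2 fold change of -1.08 ± 0.19 (edgeR adjusted p = 0.00347) that was -0.93 after the correction. TESMIN, a relative of LIN54 with the same kind of DNA-binding domain, rose from 1.44 and 1.86 CPM to 4.71 and 4.44 CPM (1.47 ± 0.31; edgeR adjusted p = 0.00773), a call lost without Neoribocic replicate 1 (edgeR adjusted p = 0.0566). Of the 4 paralogues 3 fell and 1 rose, against 21.3% lower and 19.1% higher over all genes tested. The median was -0.99, and with the correction 2 fell and 1 rose, with a median of -0.46.

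Among 12 kinases, cyclins and ubiquitin factors that act on B-MYB or FOXM1, 6 fell and 2 rose, with a median of -0.51. Over all genes tested 21.3% were lower and 19.1% higher. With the correction 7 of the 12 were lower and 2 higher, with a median of -0.57. CCNA2, the cyclin A gene whose kinase activates both factors, went from 172 and 150 CPM to 54.3 and 56.5 CPM (-1.53 ± 0.19; edgeR adjusted p = 0.00113). CDK6, a kinase that phosphorylates FOXM1, had a log2 fold change of -1.602 (corrected -0.57), SKP2, a substrate receptor of the SCF ubiquitin ligase, -1.07 (corrected -0.57) and CDK1, the mitotic kinase, -0.91. FZR1, an activator of the anaphase-promoting complex that targets FOXM1 for degradation, went from 75.1 and 68.7 CPM to 148 and 117 CPM. Its log2 fold change was 0.88 ± 0.20 (edgeR adjusted p = 0.0107), or 0.53 with the correction. CDK4 rose by 0.94 (corrected 0.57) and shares 43.2% of its exon bases with genes on the opposite strand. Without Neoribocic replicate 1, 2 of the 12 passed as lower and 0 as higher.

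**Figure D4:**
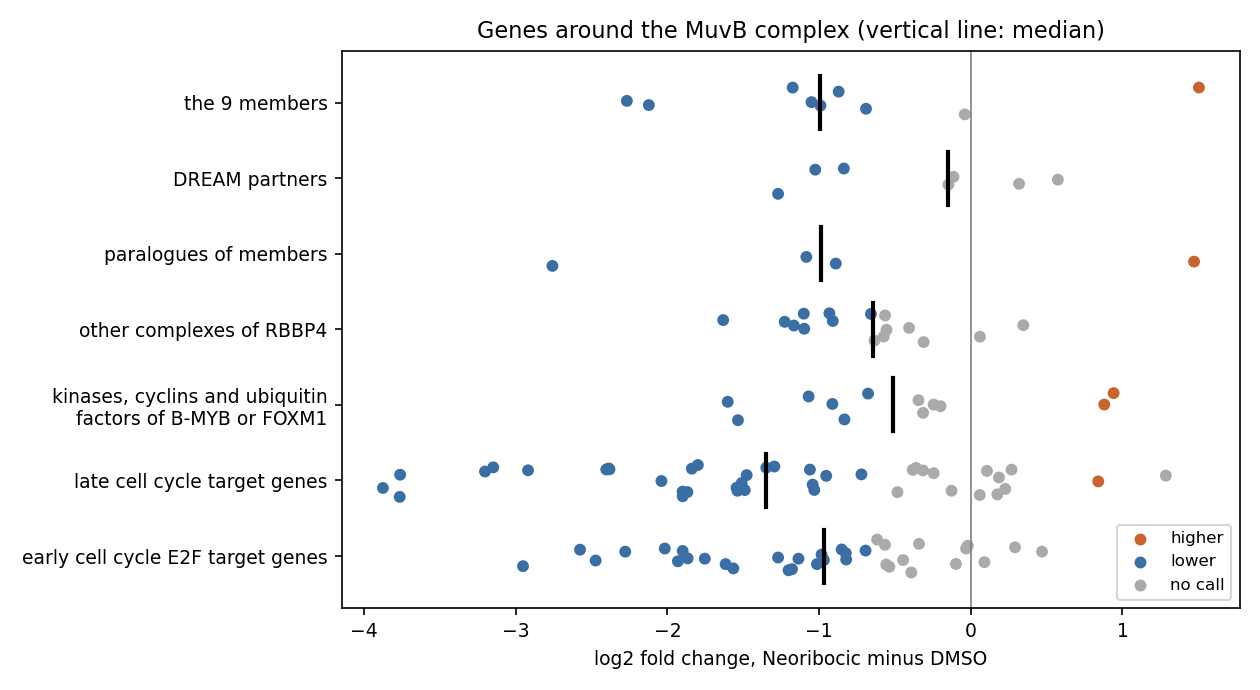
Log2 fold change (Neoribocic minus DMSO) of the 9 genes and of each gene in 6 companion lists, 1 point per gene, colored by call, with a vertical line at each list's median. Medians run from -1.35 for late cell cycle target genes to -0.15 for DREAM partners.

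Genes that MuvB, B-MYB and FOXM1 switch on late in the cell cycle were mostly lower. Of 41 such genes 27 fell and 1 rose (65.9% and 2.44%), against 21.3% lower and 19.1% higher over all genes tested. Their median log2 fold change was -1.35. After the correction 32 were lower and 0 higher, with a median of -1.07, against 19.2% lower and 16.5% higher over all genes. The kinetochore genes CENPE and CENPF had log2 fold changes of -3.87 and -3.76, MKI67 -3.76 and TOP2A, the topoisomerase of chromosome condensation, -3.20. MKI67 was at 1445 and 1524 CPM with DMSO and 120 and 98.6 CPM with Neoribocic, with no overlap. KIF23 went from 106 and 103 CPM to 32.4 and 40.9 CPM. Other well-known targets did not pass. CDC20 was at 151 and 156 CPM with DMSO and 160 and 122 CPM with Neoribocic (log2 fold change -0.13 ± 0.20), and CCNB2 was at 100.5 and 89.0 against 72.2 and 73.2 CPM (-0.38 ± 0.19). After the correction both passed as lower, at -0.78 and -0.46 (edgeR adjusted p = 0.00923 and 0.0421). CENPA, the centromeric histone, rose at 0.84 ± 0.25 (edgeR adjusted p = 0.0285), which did not pass when DMSO replicate 2 or Neoribocic replicate 1 was absent (edgeR adjusted p = 0.124 and 0.162) or with the correction (0.0546).

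Early cell cycle genes read by E2F moved the same way. Of 35 such genes 22 fell and 0 rose, with a median of -0.97, against 21.3% lower and 19.1% higher over all genes tested. With the correction 26 were lower and 1 higher, with a median of -0.78, against 19.2% lower and 16.5% higher over all genes. CCNE2, a cyclin of S phase entry, had a log2 fold change of -2.58, and 37.14% of its exon bases are shared with the opposite strand. MCM6 and MCM4 of the replicative helicase were at -2.28 and -1.87 and POLA1 of DNA polymerase alpha at -2.95. Not all genes of the helicase passed as lower. MCM3 was lower too, at -1.90, but MCM2, MCM5 and MCM7 did not pass (-0.03, -0.34 and -0.02). After the correction MCM5 passed as lower, at -0.61, while MCM2 and MCM7 were at -0.35 and -0.44 and did not pass. In all, 13 of the 35 early genes had no call as counted. The late and early lists share no gene with the 9 members, but they were compiled with results of these data known, and their direction is not independent evidence.

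The promoter letters set the lists apart as their definition implies. Of 36 late genes with a promoter window 27 had a CHR match, against 3 of 29 early genes and 19.5% of all symbols. An E2F match was found for 27 of 29 early genes and 15 of 36 late genes, against 26.4% of all symbols. As counted, late genes that fell and late genes that did not pass both carried the CHR, in 19 of 24 and 7 of 11 cases. MKI67 and KIF23 on one side and CDC20 and CCNB2 on the other show this in the sequences above. With the correction CDC20 and CCNB2 passed as lower too (-0.78 and -0.46), so this contrast holds only as counted. In late genes the CHR matches were most frequent at -50 to -26, with 23.9 per 100 windows against 1.53 per 100 windows over all promoters.

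**Figure D5:**
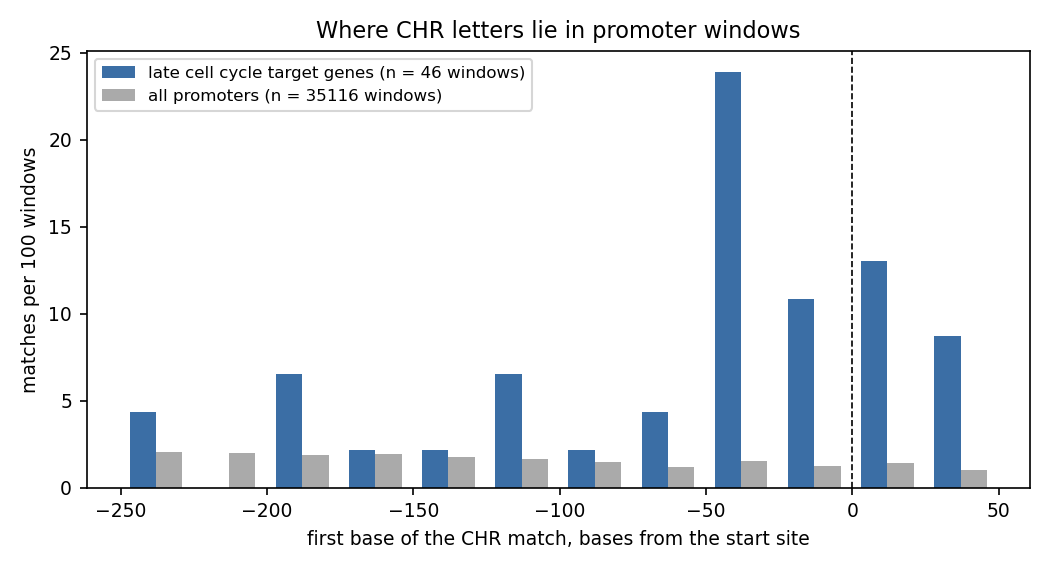
Position of the first base of a CHR match as distance from the start site in bins of 25 bases, as matches per 100 windows on a linear axis from 0, for late cell cycle target genes (46 windows) and all promoters (35116 windows). The highest bar of the late genes is 23.9 at -50 to -26.

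The genes whose profile over the 4 libraries lay nearest to that of MYBL2 were GAS2L1, IRF1-AS1 and ETV4, at Euclidean distances of 0.101, 0.118 and 0.124 on mean-centred log2 CPM. The median distance over 10807 genes with a mean of at least 5 CPM was 1.16. For FOXM1 they were MAP3K14, GIT2 and PDSS1, at distances of 0.0373, 0.0378 and 0.0472. GIT2 was at 144 and 162 CPM with DMSO and 74.1 and 78.6 CPM with Neoribocic, close to FOXM1 in every library. With 4 libraries in 2 groups such likeness describes these libraries only.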

How the data were processed

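The deposited table holds raw counts per human Ensembl gene, whole numbers made by the authors with no normalization. The sources used here name no aligner, counter or human build. The submitters' processing notes name the mouse builds GRCm38 and mm10. Of 20263 IDs 20148 had a symbol. Genes were filtered with filterByExpr, scaled by TMM and tested with edgeR 4.0.16 (robust quasi-likelihood, R 4.3.3). The SE is the log2 fold change divided by the square root of F. Transcript length and GC content came from GENCODE release 29 (1 principal transcript per gene) and the trend was fitted with mgcv 1.9.3 on log2 CPM (prior count 3) and used as an offset. The fit was also run on simulated counts in which the response had no trend with length or GC content. That run cannot show how the fit behaves with such a trend. The 9 members were chosen by name and not from their values. Earlier results of these data were known when the members, the 6 companion lists and the alternatives were chosen. Besides the 9, all DREAM partners and paralogues are named, and from each other list up to 4 genes per direction with the smallest p. KIF23, CCNB2, CDC20, MCM2, MCM3, MCM5 and MCM7 were added after their values were seen. DESeq2 1.42.0 and limma 3.58.1 served as alternatives. Counts below 20 were even in 62.3% to 65.4% of cases, so reads may have been counted in pairs. Counts halved were therefore an alternative. The others were other scalings, filters and tools, a replicate block, leaving out each library, no mitochondrial genes and the trend correction.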

Additional observations from a re-analysis of the deposited data

How the results depend on the processing

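Of the 9 genes, MYBL1, FOXM1, ATAD2 and LIN37 kept direction and call under all 16 alternatives. RBBP4 turned to 0.20 with the length and GC correction. LIN52, never called, turned positive with upper-quartile factors (0.084), library totals (0.14) and the correction (0.24), and ran from -0.11 to 0.040 with a library left out. Also uncalled, E2F4 turned to 0.0067 under upper-quartile factors and 0.050 under library totals and ran from -0.28 to 0.042 with a library left out. TFDP2 turned to 0.035 with library totals and 0.085 with the correction, and DYRK1A ran from -0.074 to 1.03 with a library left out. Upper-quartile factors and library totals moved the median of all genes by 0.12 and 0.17.

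Of the 9, 7 were called lower. That number was 4 with the correction and 4 at a threshold of 0.01, and 3 to 5 when a library was left out. At 0.01 the calls over all genes were 1138 higher and 1745 lower, and with a library left out 1001 to 2215 higher and 1467 to 2382 lower. The correction gave 1 higher DREAM partner, 1 higher gene in other complexes of RBBP4, 1 higher early gene and 0 higher late genes. Higher late genes numbered 2 with DESeq2, 2 with the replicate block, 0 at 0.01 and 0 to 2 with a library left out. Library totals gave 1 higher early gene. Of the kinases, cyclins and ubiquitin factors 1 was higher at 0.01, and 0 to 2 were higher and 2 to 5 lower with a library left out. With a library left out, 1 to 3 DREAM partners were lower and 0 to 1 paralogues higher. A group left with 1 library was assumed to vary like the other.

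Libraries with the same replicate number did not deviate together from their group means (correlation of deviations -0.055 across 13879 genes, which are not independent). Since each group has 2 libraries, this check cannot tell whether same-numbered libraries share a culture or batch. With the replicate number as a block 7 of the 9 were lower and 1 higher, and 5594 genes were called against 5610. The scaled level of LIN37 in DMSO rests on 165 and 199 counts, the lowest depth among the 9.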
